A study of Mus musculus with 24 samples.

Results

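The genes described here encode voltage-gated calcium channels, the channels and pumps of the calcium stores, the plasma membrane calcium pumps and the calmodulin-dependent (CaM) kinases. Members were all genes whose symbol begins with Cacna1, Cacna2d, Cacnb, Ryr, Itpr, Atp2a, Atp2b, Camk or Camkk followed by digits or lower-case letters. The rule found 44 of the 18194 genes on the array. They comprise 9 pore-forming channel subunits, 4 alpha2-delta subunits, 3 beta subunits, 3 ryanodine receptors, 6 genes of the Itpr symbol group, 3 pumps of the store membrane, 4 plasma membrane pumps and 12 CaM kinase genes. The symbol pattern also takes proteins that act on the named families (Itprip, Itpripl1, Itpripl2, Itprid2, Camk2n1 and Camk2n2) and the pseudokinase Camkv. Itpr1, Cacna1i, Cacnb3 and Camkk1 were not among the 44 members, so nothing is said of them here.

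Depolarization opens voltage-gated calcium channels, and L-type channels in particular pass calcium that signals to the nucleus. Ryanodine and inositol trisphosphate (IP3) receptors release calcium from the endoplasmic reticulum, SERCA pumps refill it, and plasma membrane pumps remove calcium from the cell. Calmodulin carries the signal to the CaM kinases, of which CaMKIV phosphorylates the transcription factor CREB and CaMKII acts at synapses.

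Messenger RNA was measured on 24 arrays of cultured neurons from C57Bl/6 mouse embryos at embryonic day 14. Cultures were derived from the medial ganglionic eminence (MGE), a source of inhibitory interneurons, or from the cortex (CTX), and came from littermates that were wild-type (WT) or knockout (KO) for Npas4, an activity-induced transcription factor. All cultures, including those at 0 h, were silenced overnight with TTX, a sodium channel blocker, and AP-5, an NMDA receptor blocker, and then received 55 mM KCl for 0, 1 or 6 h. The 12 groups of cell type, genotype and time held 2 arrays each, and the study's question is how the 2 kinds of neuron differ in the genes that Npas4 controls during activity. The age in culture is given as 10 days in the labels and as 9 days before silencing in the series text. The KO is described without the deleted part of the gene. The labels number repeats without saying that they were separate cultures, so the p-values below measure the spread between arrays, which may be technical.

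Values are log2 intensities, and differences are log2 differences with their standard error (SE) from a limma fit over all 24 arrays, with n = 2 arrays per group. Genes entered the test when their probe set was brighter than the array median (log2 6.84 to 6.92) in 2 or more arrays, which kept 12378 genes and 37 of the 44 members. A gene was called at a Benjamini-Hochberg adjusted p under 0.05 over the 12378 genes. The other 7 members, Atp2a1, Atp2a3, Cacna1f, Cacna1s, Cacna2d4, Itpr3 and Itpripl1, were below the array median in every array and were not tested. They include channel subunits and pumps best known from muscle and retina. Levels of different genes are not compared, because probe sets differ in brightness.

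Npas4 rose at 1 h to 12.04 and 11.20 in MGE WT and to 12.03 and 11.77 in CTX WT, from 5.70 to 5.94 in the 4 WT arrays at 0 h, while the KO arrays read 6.80 to 7.35 at 1 h. Fos, an early activity gene, rose in all 4 combinations of cell type and genotype, to 13.21 or more at 1 h. Across genes, the correlation between a group's arrays was 0.965 to 0.992 except for MGE WT at 0 h, where it was 0.951 and 1507 genes (12.2%) lay over 2-fold apart. Among members 9 of 37 (24.3%) did so there: replicate 2 was lower for Camk2d, Camk1d, Ryr2, Cacnb2, Cacna1c and Atp2b1 and higher for Itprip, Cacna1h and Itpripl2. The gap of Itpripl2 is not particular to that pair, because its replicate 2 was higher in every MGE group. It read 7.38 and 8.50 in MGE KO at 0 h and 7.89 and 9.37 in MGE KO at 6 h. For the genes lower in this replicate 2, it was the lowest of all MGE arrays, and below it is said to stand apart. Next lowest for each of them was replicate 1 of MGE WT at 1 h, where Camk2d read 9.71 against 10.63 in its pair. Called results that replicate 2 of MGE WT at 0 h ended, turned or moved by over 1.5 times are given with and without it. Other pairs were also wide: 980 genes lay over 2-fold apart in CTX WT at 6 h and 549 in MGE WT at 1 h. The median gap of the members was 0.37 in MGE WT at 1 h and 0.33 in MGE WT at 0 h, and the MGE WT results at 1 h rest on these 2 pairs.

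At rest, before KCl, the WT cultures of both cell types were compared first. MGE cultures had less of most members that differed: 18 of 37 were lower and 7 higher than in CTX cultures, and 12 were not called. One of the 18, Ryr1, passed the filter only through its CTX arrays, so its call carries no weight. Over all genes tested 64.2% were called in this comparison, 29.5% lower and 34.7% higher, so the share of members called (67.6%) was near the background, with 48.6% lower and 18.9% higher. The median difference of the members was -0.69 against 0.11 for all genes. In KO cultures 22 members were called (16 lower, 6 higher; 47.0% of all genes), and 20 of them were called in the same direction in WT, which is 80% of the WT calls and 90.9% of the KO calls. The 20 include Ryr1. The same overlap over all genes was not counted, so it is not read as particular to the members. In bulk RNA, fewer cells of a type and less RNA per cell cannot be told apart.

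Of the alpha2-delta subunits, which bring channels to the membrane, Cacna2d1 had the largest resting difference of the 37 members. It read 8.77 and 7.84 in MGE WT against 13.39 and 13.51 in CTX WT at 0 h. It stayed between 7.84 and 9.34 in all 12 MGE arrays and between 12.96 and 13.51 in all 12 CTX arrays, so no array overlapped. Cacna2d1 was 35.4-fold lower in MGE cultures (-5.15 ± 0.28, SE, adjusted p = 9.3e-09), 21.7-fold lower in KO cultures, and -4.68 without the array that stood apart. Its relative Cacna2d2 ran the other way, at 11.84 and 11.79 in MGE WT and 9.10 and 9.46 in CTX WT, which is 5.8-fold higher in MGE (2.54 ± 0.32, adjusted p = 1.9e-05) and 4.06-fold higher in KO cultures. This rests on the 1 Cacna2d2 probe set bright enough to be tested, and with probe sets averaged the difference was 0.94. Cacna2d3 was lower in MGE by a smaller amount (-0.73 ± 0.25, adjusted p = 0.018). All 3 tested probe sets of Cacna2d1, of 5 on the array, were called lower, from -5.15 to -2.56.

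Of the 7 pore-forming subunits tested, 4 were lower and 1 was higher in MGE WT cultures, beside 29.5% and 34.7% of all genes. Cacna1c, the L-type subunit that dominates in brain, read 9.79 and 8.62 in MGE WT and 11.28 and 11.39 in CTX WT. The difference was -2.13 ± 0.27 (adjusted p = 1.8e-05), -1.54 without the MGE WT array that stood apart and -1.54 in KO cultures. Cacna1d, the second neuronal L-type subunit, was lower by less (-0.74 ± 0.19, adjusted p = 0.0033), as were the R-type subunit Cacna1e (-0.69 ± 0.14) and the T-type subunit Cacna1g (-0.92 ± 0.27). The P/Q-type subunit Cacna1a differed by 0.04 and the T-type subunit Cacna1h by 0.35 (-0.23 without the array that stood apart), and neither was called. Cacna1b, the N-type subunit, was called higher (0.86 ± 0.26, adjusted p = 0.0091), but 2 of its 4 probe sets were called lower, so its direction depends on the probe set. Of the beta subunits, which regulate channel gating and trafficking, Cacnb1 was higher (0.66 ± 0.19, adjusted p = 0.0075, and 0.52, adjusted p = 0.078, without the MGE WT array that stood apart) with 1 of its 4 probe sets called lower. Cacnb2 (-0.93) and Cacnb4 (0.47) were not called, but both were with the replicate number as a block (adjusted p = 0.012 and 0.036), and Cacnb4 was called in KO cultures (0.74, adjusted p = 0.015). Without the array that stood apart Cacnb2 differed by -0.32.

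Of the ryanodine receptors, the release channels of the store, Ryr2 and Ryr3 were lower in MGE cultures. Ryr2, the form known from heart and brain, read 9.30 and 8.06 in MGE WT and 11.22 and 11.46 in CTX WT, a difference of -2.67 ± 0.38 (adjusted p = 4.8e-05), -2.05 without the array that stood apart and -1.69 in KO cultures. Ryr3 read 8.06 and 8.32 against 9.88 and 9.64 (-1.57 ± 0.36, adjusted p = 0.0018). Ryr1, the skeletal muscle form that neurons also express, read 6.04 and 6.16 against 7.43 and 7.39. It was below the array median in all 12 MGE arrays, at 5.17 to 6.43, and entered the test only through CTX, so its levels are a description with no test. The arrays of Ryr2 and Ryr3 did not overlap between the cell types at 0 h in either genotype. How many of all genes did the same was not counted, and 64.2% of them were called in this comparison in WT.

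No IP3 receptor gene was called at rest, and the called partners Itprip and Itprid2 went in opposite directions. Itprip, which encodes a protein that binds IP3 receptors and strengthens their inhibition by calcium, was higher in MGE WT at rest (8.09 and 9.17 against 6.96 and 6.89, or 1.70 ± 0.38, adjusted p = 0.0014). In KO cultures the difference was 0.81 ± 0.38 and was not called (adjusted p = 0.094). Itprid2, which encodes an actin-linked protein that holds IP3 receptors near the cell border, was lower in MGE WT (5.87 and 5.73 against 7.65 and 7.55, or -1.80 ± 0.40, adjusted p = 0.0015). In KO cultures it differed by -0.80 ± 0.40 (adjusted p = 0.12). Itpripl2 differed by 1.14 in WT and was not called, but it was with the replicate number as a block (adjusted p = 0.00018). Without the MGE WT array that stood apart it differed by 0.51. The IP3 receptor Itpr2 was not called in either genotype, Itpr3 was not tested, and Itpr1 was not among the members.

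Among the pumps, Atp2b1, the widely expressed plasma membrane form, was 2.95-fold lower in MGE WT (12.40 and 11.36 against 13.40 and 13.49, -1.56 ± 0.22, adjusted p = 4.8e-05). Without the array that stood apart it was -1.04 (adjusted p = 6.3e-05). Atp2b2, a fast pump of neurons and hair cells, was 1.7-fold lower (-0.77 ± 0.17, adjusted p = 0.0014), although 1 of its 3 probe sets was called higher. Without the array that stood apart the difference was -0.42 (adjusted p = 0.023), and with probe sets averaged -0.07 (adjusted p = 0.72). The SERCA pump Atp2a2 read 13.34 to 13.78 in all 24 arrays, and its cell types differed by 0.10 at rest, which was not called.

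Of the 12 CaM kinase genes and relatives, 6 were called lower in MGE WT, 3 higher and 3 not, beside 29.5% lower and 34.7% higher over all genes. The 6 lower include the inhibitor Camk2n1 and Camk2d, whose direction depends on the array and the probe set. Camk2b, a CaMKII subunit of neurons, read 12.67 and 12.52 in MGE WT and 13.34 and 13.38 in CTX WT (-0.76 ± 0.11, adjusted p = 6.7e-05). Camk2a (-0.63 ± 0.18), the nuclear kinase Camk4 (-0.71 ± 0.15) and Camkk2 (-0.73 ± 0.20), a kinase that activates Camk1 and Camk4, were lower in both genotypes. Of the tested probe sets, 4 of 5 of Camk2a and all 4 of Camkk2 were called lower. Camk2g, a broadly expressed CaMKII subunit, was higher (0.73 ± 0.15, adjusted p = 0.00094), as was Camk1 (0.83 ± 0.25, adjusted p = 0.011). The CaMKII inhibitors split, with Camk2n1 lower (-1.50 ± 0.26, adjusted p = 0.00023) and Camk2n2 higher (0.42 ± 0.14, adjusted p = 0.017). Camk2n1 differed by -1.05 without the array that stood apart and by -0.68 in KO cultures, and its second probe set differed by 0.36 and was not called. Camk2d was called lower (-1.47 ± 0.52, adjusted p = 0.024), but it read 10.35 and 7.89 in the 2 MGE WT arrays. Without the lower array it differed by -0.24, in KO cultures by 0.24, and 4 of its 6 tested probe sets were called higher.

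Without MGE WT replicate 2, the resting calls on Cacna1b (0.70), Cacna2d3 (-0.53), Cacnb1 (0.52), Camk1 (0.65), Camk2d (-0.24) and Camk2n2 (0.43) were lost. Cacnb4 (0.77) was called in that fit. Of these 6, Cacna2d3, Camk1 and Camk2n2 were called in the same direction in KO cultures. With probe sets averaged, resting differences that moved by over 1.5 times and were still called were Cacna2d1 (-2.99), Ryr2 (-1.69), Itprip (1.12), Atp2b1 (-1.02), Camk2n1 (-0.57), Camk2a (-0.96) and Camkk2 (-1.77).

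**Figure D1:**
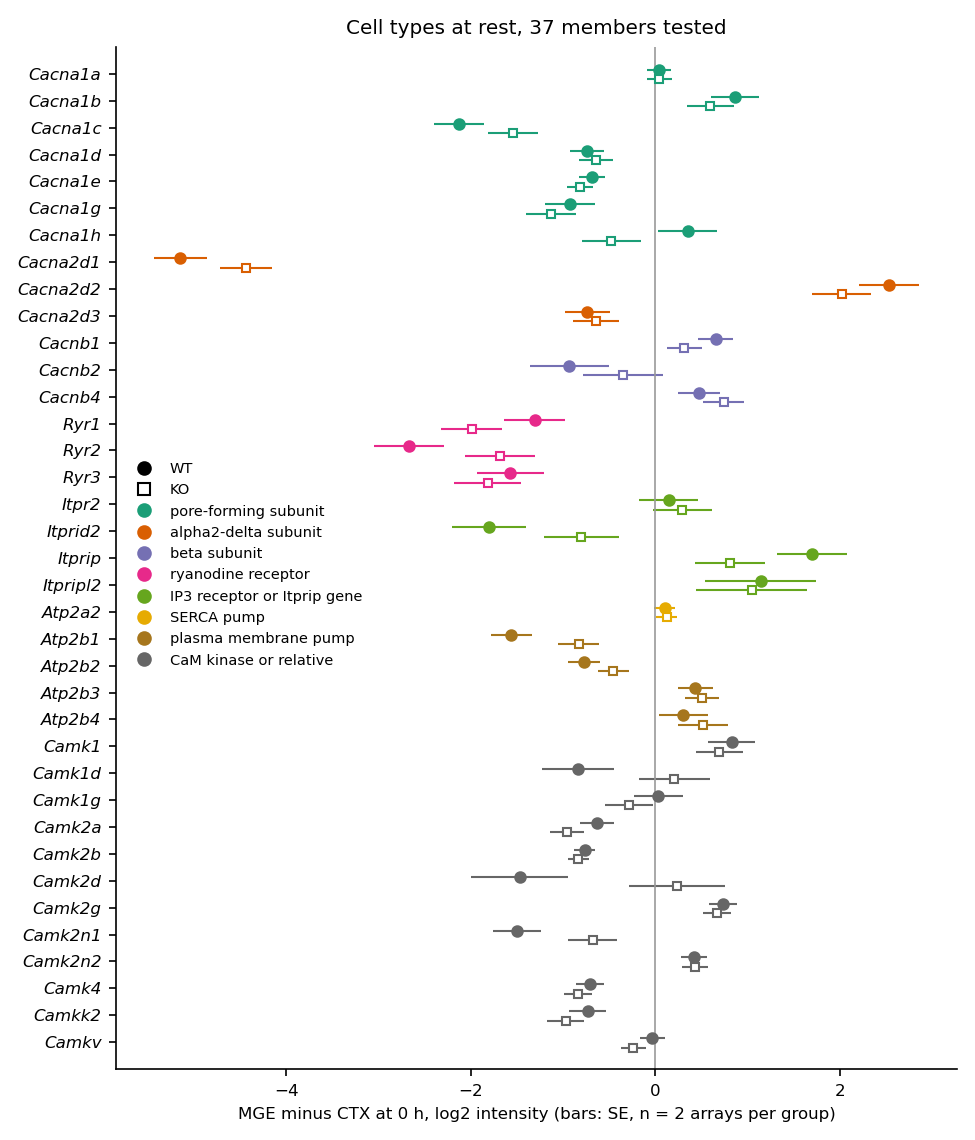
Difference between MGE and CTX cultures at 0 h (x axis, log2 intensity, bars are SE) for the 37 members tested, grouped by role (colours), in WT (filled circles) and KO cultures (open squares). Cacna2d1 lies farthest to the left at -5.15 in WT and Cacna2d2 farthest to the right at 2.54, and Ryr2 and Ryr3 lie left of 0 in both genotypes.

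The labelled cell types were checked with marker genes. Of 10 excitatory neuron markers tested, 7 were lower and 1 higher in MGE WT at rest, beside 29.5% and 34.7% of all genes. In every MGE group 7 of the 10 were below the array median in both arrays, and in every CTX group 0 were. Calls of markers that entered the test only through CTX arrays carry no weight, so the levels are a description. The mean level of the 10 excitatory markers was 6.71 to 6.87 in MGE WT against 11.37 to 11.49 in CTX WT. Of 13 MGE interneuron markers 11 were higher in MGE, beside 34.7% of all genes. Their mean level was 11.20 to 11.63 against 9.14 to 9.53, and both levels were above the array median. The counts for other cells are a description beside that same share of all genes, 34.7%. Higher in MGE were 4 of 7 microglia markers (6.95 to 7.28 against 6.17 to 6.21) and 3 of 7 vascular and mural markers (8.06 to 8.20 against 7.13 to 7.18). So were 3 of 8 progenitor markers, with 1 lower (9.31 to 9.81 against 8.33 to 8.87), and 2 of 5 of the oligodendrocyte lineage (7.70 to 8.12 against 7.34 to 7.42). Of 7 astrocyte markers 1 was higher (9.23 to 9.63 against 8.90 to 9.29). Of 9 microglia markers on the array, 5 were below the array median in both CTX WT arrays at 0 h. A microglia call that entered the test only through MGE arrays carries no weight. Of 5 skeletal and cardiac muscle markers tested 0 were called (5.87 to 6.13 against 6.04 to 6.07, below the array median). The part of these cells in the resting differences was not tested.

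Depolarization was compared with 0 h within each cell type and genotype. After 1 h 1 member was called in CTX WT and 1 in CTX KO, both times Itprip, against backgrounds of 0.864% and 1.10% of all genes (0.622% and 0.671% called higher). In MGE cultures 0 members were called at 1 h in WT or KO (limma, backgrounds 0.574% and 0.444%), and 1 in each had an unadjusted p under 0.05. After 6 h 5 members were called in CTX WT (2 higher, 3 lower; 35.2% of all genes, 10.5% higher and 24.8% lower) and 7 in CTX KO (4 higher, 3 lower; 36.2%, 11.3% higher and 24.9% lower). In MGE cultures 7 were called in WT (6 higher, 1 lower; 25.3%, 9.53% higher and 15.7% lower) and 3 in KO (2 higher, 1 lower; 17.1%, 4.84% higher and 12.3% lower). The share of members called was thus 13.5%, 18.9%, 18.9% and 8.11%, below the background in all 4 comparisons. The comparisons of 1 and 6 h share their 0 h arrays. The responses of MGE and CTX cultures at 6 h differed for 4 members in WT (2 higher and 2 lower in MGE; 10.9% of all genes, 6.99% higher and 3.92% lower) and 1 in KO (7.34%), and with cyclic loess scaling for 2 in WT, both lower.

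The promoters of the 3 members that rose at 6 h in more than 1 of these 4 comparisons are shown to place the genes, since Itprip, Itprid2 and Cacnb2 rose in different cell types. They are RefSeq windows of 250 bases before to 50 after a start (GRCm38.p6). Capitals mark the cyclic AMP response element half-site TGACG on either strand, or the E-box CACGTG.
Itprip (chr19:47919274-47919573, minus strand): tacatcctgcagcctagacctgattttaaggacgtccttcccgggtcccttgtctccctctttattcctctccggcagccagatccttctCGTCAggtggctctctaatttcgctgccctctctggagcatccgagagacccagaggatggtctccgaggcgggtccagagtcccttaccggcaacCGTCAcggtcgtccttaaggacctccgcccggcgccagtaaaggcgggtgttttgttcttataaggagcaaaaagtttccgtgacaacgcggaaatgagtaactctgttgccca
Itprid2 (chr2:79635175-79635474, plus strand): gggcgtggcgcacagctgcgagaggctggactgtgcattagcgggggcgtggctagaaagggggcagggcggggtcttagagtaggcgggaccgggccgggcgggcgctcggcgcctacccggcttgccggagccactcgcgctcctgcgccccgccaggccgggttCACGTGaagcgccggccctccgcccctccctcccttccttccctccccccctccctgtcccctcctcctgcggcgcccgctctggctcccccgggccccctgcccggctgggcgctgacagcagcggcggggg
Cacnb2 first start (chr2:14604056-14604355, plus strand): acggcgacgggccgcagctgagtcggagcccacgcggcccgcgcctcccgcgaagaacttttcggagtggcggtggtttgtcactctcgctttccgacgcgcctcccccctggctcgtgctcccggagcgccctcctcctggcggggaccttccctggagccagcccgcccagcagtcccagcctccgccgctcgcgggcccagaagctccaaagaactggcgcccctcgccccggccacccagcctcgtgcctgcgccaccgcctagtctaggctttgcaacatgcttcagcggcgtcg
Cacnb2 second start (chr2:14823842-14824141, plus strand): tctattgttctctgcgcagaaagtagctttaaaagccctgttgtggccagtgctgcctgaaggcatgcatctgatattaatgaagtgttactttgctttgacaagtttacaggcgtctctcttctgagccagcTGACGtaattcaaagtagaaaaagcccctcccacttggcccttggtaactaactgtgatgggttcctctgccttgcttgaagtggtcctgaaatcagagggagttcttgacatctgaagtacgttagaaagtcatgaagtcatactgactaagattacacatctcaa

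The Itprip window held 2 half-sites, the second Cacnb2 window 1, and the Itprid2 window 1 E-box. Both windows of Cacna1d, which fell, held 0 of the 4 motifs searched. Windows were found for 33 of the 44 members, 45 in all. Searched on both strands, the half-site TGACG stood in 9 of these 45 windows and in 20.81% of all 32851 promoter windows. The full element TGACGTCA, which contains the half-site, stood in 0 of 45 and 1.79% of all, the AP-1 motif TGANTCA in 0 of 45 and 7.81%, and the E-box CACGTG in 3 of 45 and 7.15%. A match is a description of the letters in the window and not a binding site.

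Itprip showed the largest response, and only its CTX response was called. In CTX WT it went from 6.96 and 6.89 before KCl through 9.67 and 8.33 after 1 h to 10.43 and 11.09 after 6 h. CTX KO followed with 7.10 and 7.05, then 9.39 and 9.04, then 10.36 and 10.65. The arrays of the 3 times did not overlap in either genotype. Itprip rose 4.2-fold by 1 h (2.07 ± 0.38, adjusted p = 0.014) and 14.3-fold by 6 h in CTX WT (3.83 ± 0.38, adjusted p = 3.9e-06), and 4.4-fold and 10.8-fold in CTX KO. The CTX levels at 0 h were close to the array median, so these folds are approximate. Over the alternative settings the lowest rise at 6 h was 2.57 in CTX WT and 2.31 in CTX KO. The call at 1 h in WT was lost without any 1 of 3 of its 4 arrays, with values from 1.40 to 2.11 and adjusted p from 0.12 to 0.28 in those fits. The KO call was lost likewise without any 1 of 3 of its 4 arrays (1.96 to 2.16, adjusted p = 0.09 to 0.17), and both were lost with only the CTX arrays fitted (adjusted p = 0.083 in WT and 0.065 in KO). Averaged over WT and KO the rise was 2.10 ± 0.27 (adjusted p = 0.00026).

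In MGE WT cultures Itprip read 8.09 and 9.17 before KCl and 8.68 and 9.11 after 6 h. MGE KO cultures went from 7.84 and 7.93 to 8.597 and 8.80. The changes were 0.27 ± 0.38 and 0.82 ± 0.38 (adjusted p = 0.64 and 0.17), and without the WT array that stood apart the WT change was 0.81 (adjusted p = 0.25). The difference between the cell types' responses at 6 h was itself called, at -3.56 ± 0.54 in WT (adjusted p = 0.0012) and -2.61 ± 0.54 in KO (adjusted p = 0.0088), and at -3.02 in WT without the MGE WT array that stood apart (adjusted p = 0.0056). A second, dimmer Itprip probe set rose by 1.31 ± 0.24 in CTX WT and changed by -0.34 ± 0.24 in MGE WT. At 0 h all 4 MGE arrays of Itprip lay above all 4 CTX arrays, and at 6 h all 4 CTX arrays lay above all 4 MGE arrays.

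Itprid2 was called in all 4 comparisons at 6 h. MGE WT cultures went from 5.87 and 5.73 to 7.77 and 7.98. MGE KO went from 6.06 and 7.17 to 7.66 and 8.16, in CTX WT from 7.65 and 7.55 to 9.00 and 8.81, and in CTX KO from 7.68 and 7.15 to 8.61 and 8.63. In each case both 6 h arrays lay above both 0 h arrays. The rise was 4.21-fold in MGE WT (2.07 ± 0.40, adjusted p = 0.0023), 2.46-fold in MGE KO (adjusted p = 0.04), 2.47-fold in CTX WT (adjusted p = 0.021) and 2.31-fold in CTX KO (adjusted p = 0.03). The MGE WT level at 0 h was below the array median, so its fold is approximate. The MGE WT call held when any 1 array was left out, at 2.01 without the array that stood apart. The CTX WT call was lost without any 1 of its 4 arrays (1.21 to 1.40, adjusted p = 0.052 to 0.095), while averaging WT and KO gave 1.25 ± 0.29 (adjusted p = 0.002). The KO calls were each lost without any 1 of 3 arrays (0.94 to 1.21 in CTX and 0.74 to 1.54 in MGE, adjusted p = 0.097 to 0.2 and 0.078 to 0.41), and averaging gave 1.68 ± 0.29 in MGE (adjusted p = 0.00038).

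Cacna1d was the only member called lower in all 4 comparisons at 6 h. In MGE WT it read 11.21 and 11.13 before KCl, 11.21 and 11.31 after 1 h and 9.33 and 9.24 after 6 h. The MGE KO arrays went from 11.26 and 11.22 through 11.40 and 11.33 to 9.68 and 9.75. CTX WT arrays went from 11.89 and 11.92 at 0 h through 12.11 and 12.15 to 10.63 and 11.43, and in CTX KO from 11.92 and 11.84 through 12.15 and 12.13 to 10.74 and 11.14. The arrays at 6 h lay below all arrays at 0 and 1 h of the same cell type. Cacna1d fell 3.69-fold in MGE WT (-1.88 ± 0.19, adjusted p = 1.4e-05), 2.88-fold in MGE KO, 1.83-fold in CTX WT (-0.87 ± 0.19, adjusted p = 0.002) and 1.92-fold in CTX KO, and these 4 calls held under each alternative and each array left out. Without replicate 1 at 6 h the fall in CTX WT was -0.47, and with a gene's probe sets averaged the falls were -1.19 in MGE WT, -0.96 in MGE KO, -0.62 in CTX WT and -0.47 in CTX KO. The fall was larger in MGE WT than in CTX WT by 1.01 ± 0.26 on the log2 scale (adjusted p = 0.025), a call lost without any 1 of 6 of the 8 arrays (adjusted p = 0.05 to 0.079) and with probe sets averaged (-0.57, adjusted p = 0.097). In KO cultures the same difference was -0.59 ± 0.26 (adjusted p = 0.21). The main probe set of the other L-type subunit, Cacna1c, was not called lower in any of the 4 comparisons, but its second probe set fell in CTX WT (-0.69 ± 0.19, adjusted p = 0.011) and CTX KO (-0.63 ± 0.19, adjusted p = 0.018).

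Cacnb2 rose in MGE cultures of both genotypes. MGE WT went from 6.84 and 5.61 to 8.26 and 8.25, and MGE KO from 6.72 and 6.89 to 8.28 and 8.09. In CTX WT Cacnb2 read 7.50 and 6.80 at 0 h and 7.79 and 6.57 at 6 h, with overlapping arrays. The MGE rise was 4.09-fold in WT (2.03 ± 0.43, adjusted p = 0.0038) and 2.61-fold in KO (1.38 ± 0.43, adjusted p = 0.04), and the CTX changes were 0.02 ± 0.43 and -0.12 ± 0.43. Both MGE WT arrays at 0 h were at or below the array median, so the WT fold is approximate. Without the lower MGE WT array the rise was 1.42 (adjusted p = 0.067), and averaged over WT and KO it was 1.71 ± 0.30 (adjusted p = 0.00056). The responses of the cell types differed by 2.01 ± 0.61 in WT (adjusted p = 0.048), by 1.39 without the array that stood apart (adjusted p = 0.21) and by 1.4995 ± 0.61 in KO (adjusted p = 0.17). That call was lost without any 1 of 6 of the 8 arrays, and the MGE KO rise without any 1 of its 4 (1.29 to 1.48, adjusted p = 0.1 to 0.19).

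**Figure D2:**
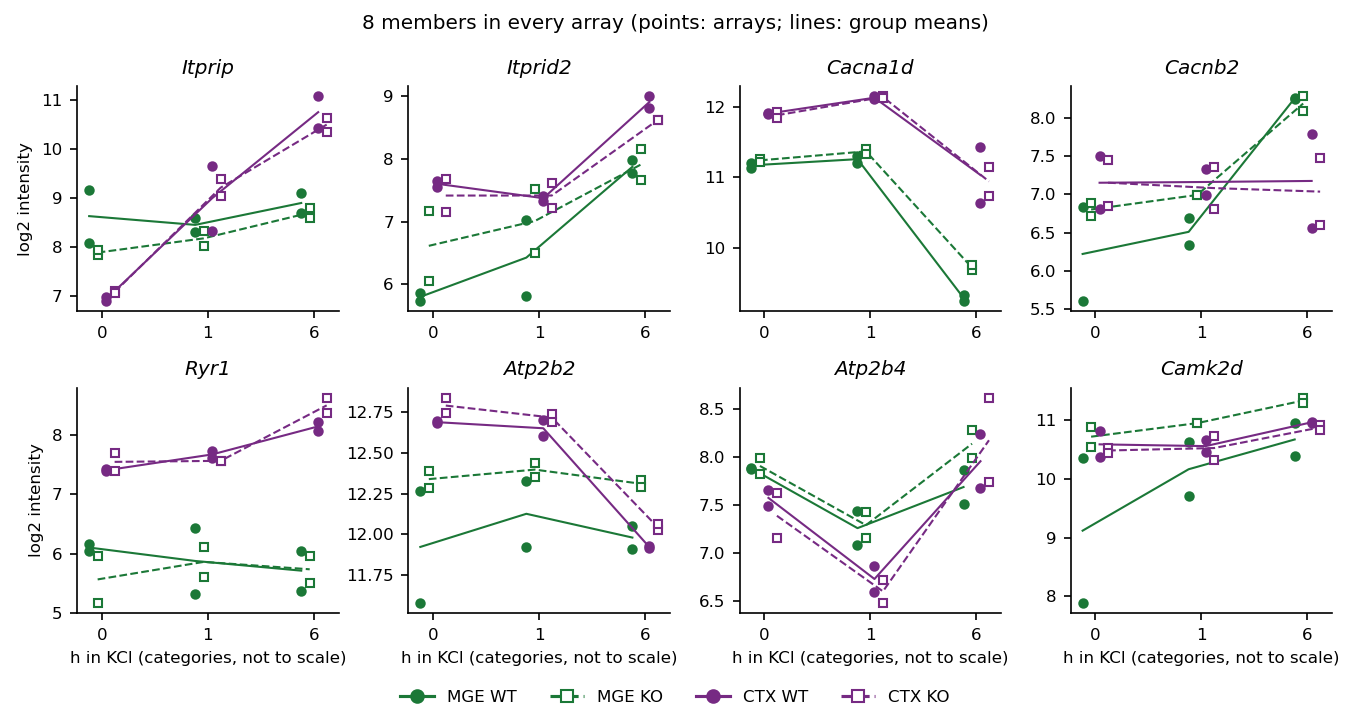
Log2 intensity (y axis) of 8 members in every array at 0, 1 and 6 h of KCl (x axis), with WT as filled circles and solid lines, KO as open squares and dashed lines, MGE in green and CTX in purple; lines join group means. Itprip climbs to 10.36 to 11.09 only in CTX cultures, Cacna1d drops to 9.24 to 9.75 in MGE at 6 h, and the MGE WT array of Camk2d at 7.89 stands alone.

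Of the pumps, Atp2b2 fell in CTX cultures. It read 12.68 and 12.70 in CTX WT at 0 h and 11.91 and 11.93 at 6 h, and 12.75 and 12.84 and then 12.02 and 12.06 in CTX KO. This was a 1.71-fold fall in WT (-0.77 ± 0.17, adjusted p = 0.0028) and a 1.68-fold fall in KO (adjusted p = 0.0031), with no overlap of arrays. The MGE changes were 0.06 in WT (-0.29 without the array that stood apart, adjusted p = 0.23) and -0.03 in KO, and the difference between responses was 0.83 ± 0.24 in WT (adjusted p = 0.042), and 0.48 without the MGE WT array that stood apart (adjusted p = 0.14). The call on that difference was lost without any 1 of 7 of the 8 arrays, and the CTX KO fall with probe sets averaged (-0.31, adjusted p = 0.16). The other probe sets of Atp2b2 changed by -0.56 and 0.00 in CTX WT and were not called. Atp2b4, another plasma membrane pump, had its lowest CTX levels at 1 h: CTX WT went from 7.49 and 7.66 to 6.59 and 6.87 after 1 h and 7.68 and 8.24 after 6 h. The difference from 0 h at 1 h was not called in either genotype alone (-0.85 ± 0.27 and -0.79 ± 0.27, adjusted p = 0.32 and 0.36) but was called lower when they were averaged (-0.82 ± 0.19, adjusted p = 0.028; 3.02% of all genes). At 6 h Atp2b4 was above 0 h in CTX KO (0.79 ± 0.27, adjusted p = 0.032), and in the average (0.59 ± 0.19, adjusted p = 0.018). The KO call was lost without replicate 1 at 0 h (0.55, adjusted p = 0.24) or replicate 2 at 6 h (0.35, adjusted p = 0.39). In MGE cultures the change at 1 h was -0.62 ± 0.27 in each genotype and was not called.

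Ryr1 rose in CTX KO and read higher at 6 h in all CTX arrays. CTX WT read 7.43 and 7.39 at 0 h and 8.07 and 8.23 at 6 h, and CTX KO 7.70 and 7.40 and then 8.63 and 8.38. The change was 0.96 ± 0.33 in KO (adjusted p = 0.035) and 0.74 ± 0.33 in WT (adjusted p = 0.098), and 0.85 ± 0.23 in their average (adjusted p = 0.007). The KO call was lost without any 1 of its 4 arrays (0.80 to 1.11, adjusted p = 0.066 to 0.18) and with probe sets averaged (0.59, adjusted p = 0.063). Ryr2 and Ryr3 were not called at 6 h in any of the 4 comparisons.

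Among CaM kinase genes in CTX cultures, Camk2g fell slightly in WT (11.41 and 11.35 to 10.75 and 11.13, -0.44 ± 0.15, adjusted p = 0.038). That call was lost under cyclic loess scaling (-0.30, adjusted p = 0.18), and without any 1 of 3 of its 4 arrays (-0.47 to -0.25, adjusted p = 0.099 to 0.31). The change in MGE WT was -0.44 ± 0.15 (adjusted p = 0.051), and averaged over genotypes Camk2g fell in both cell types (-0.39 ± 0.11 in CTX and -0.38 ± 0.11 in MGE, adjusted p = 0.0081 and 0.013). Cacnb1 was called lower in CTX KO (-0.53 ± 0.19, adjusted p = 0.04), a call lost under cyclic loess scaling (-0.23, adjusted p = 0.32) and without any 1 of its 4 arrays (-0.59 to -0.47, adjusted p = 0.088 to 0.18). Averaged over genotypes, 10 members were called in CTX at 6 h, 5 in each direction, against 49.5% of all genes, and the calls added to those above were Cacnb4 (0.42 ± 0.16) and Camk1g (-0.52 ± 0.18).

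Same-numbered arrays deviated from their group means together, with a median correlation of 0.37 between CTX groups and 0.61 between MGE groups. With the replicate number as a block the CTX WT count was 8 at 6 h and 2 at 1 h. The members added at 6 h were Ryr1 (0.74 ± 0.21, adjusted p = 0.013), Cacnb1 (-0.48 ± 0.17, adjusted p = 0.04) and Itpripl2 (0.64 ± 0.19, adjusted p = 0.015), and the member added at 1 h was Atp2b4 (-0.85 ± 0.19, adjusted p = 0.047). In MGE WT at 6 h the block added Itpripl2 (0.67 ± 0.19, adjusted p = 0.018), Cacna2d2 (-0.46 ± 0.13, adjusted p = 0.017), Cacna1e (-0.37 ± 0.12, adjusted p = 0.032) and Camk2g (-0.44 ± 0.16, adjusted p = 0.049). In MGE KO at 6 h it added Itpripl2 (0.69 ± 0.19, adjusted p = 0.018). Another scaling, cyclic loess, moved the median of all genes by 0.14 at 6 h in CTX WT and the share of higher calls among all genes there from 29.7% to 48.4%. Among members the split went from 2 higher and 3 lower to 5 higher and 2 lower, with Atp2b2 and Cacna1d still lower. In MGE WT the share over all genes went from 37.7% to 51.4% and in MGE KO from 28.3% to 47.5%, while the members stayed at 6 higher and 1 lower and at 2 higher and 1 lower. In CTX KO it went from 31.1% to 49.3%, with members at 6 higher and 2 lower.

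In MGE WT 4 further members were called higher at 6 h: Camk2d (1.55 ± 0.52, adjusted p = 0.042), Camk1d (1.37 ± 0.39, adjusted p = 0.019), Cacna1c (1.01 ± 0.27, adjusted p = 0.015) and Atp2b1 (0.92 ± 0.22, adjusted p = 0.0088). For the brightest probe set, each call was lost without the array that stood apart. Camk2d read 10.35 and 7.89 at 0 h and 10.96 and 10.39 at 6 h, and Camk1d 11.39 and 9.67 and then 12.05 and 11.75. Without that array the changes were 0.32 for Camk2d (adjusted p = 0.61), 0.51 for Camk1d (adjusted p = 0.29), 0.42 for Cacna1c (adjusted p = 0.21) and 0.40 for Atp2b1 (adjusted p = 0.078), and the MGE WT count was 2 (Cacna1d and Itprid2). Without replicate 1 of the same group it was 16. In MGE KO these 4 members changed by 0.62, 0.53, 0.29 and 0.41 and were not called. Over all tested probe sets of these genes, 5 of 6 of Camk2d, 2 of 2 of Camk1d, 2 of 3 of Atp2b1 and 1 of 2 of Cacna1c were called higher in MGE WT. With probe sets averaged, Camk2d (0.90, adjusted p = 0.0083), Camk1d (0.53, adjusted p = 0.047) and Atp2b1 (0.59, adjusted p = 0.015) were called higher in MGE KO. Averaged over genotypes 9 members were called in MGE at 6 h (6 higher, 3 lower; 36.2% of all genes), these 4 among the higher and Cacna1h among the lower (-0.68, adjusted p = 0.029).

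**Figure D3:**
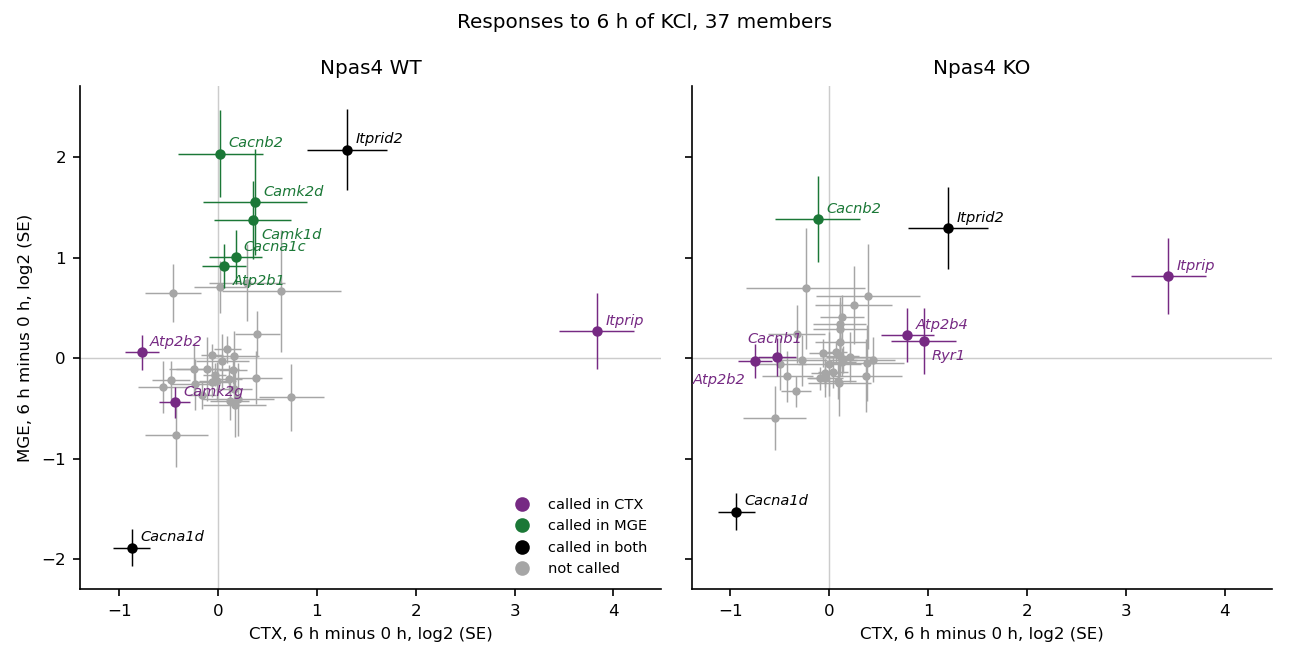
Change from 0 to 6 h of KCl in CTX (x axis) against MGE cultures (y axis), log2 with SE bars, for the 37 members in WT (left) and KO cultures (right). Colours mark the cell type in which a member was called; Itprid2 and Cacna1d are called in both, and Itprip lies far to the right at 3.83 in CTX WT with 0.27 in MGE WT (0.81 without the array that stood apart).

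Markers of cell types were followed over the same 6 h, against 35.2% of all genes called in CTX WT and 25.3% in MGE WT. In CTX WT 1 of 10 excitatory markers rose and 3 fell, 2 of 13 interneuron markers, 1 of 8 progenitor markers and 1 of 5 muscle markers rose, 1 of 7 markers of neurons in general rose and 1 fell, and of the astrocyte, oligodendrocyte, microglia and vascular lists 0 of 7, 5, 7 and 7 were called. In MGE WT 2 of 13 interneuron markers rose, 1 of 5 oligodendrocyte markers and 2 of 5 muscle markers fell, and 0 were called of the excitatory, general neuron, astrocyte, microglia, progenitor and vascular lists. The part of these calls in the members' responses was not tested.

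Genes of the same pathway outside the family were read from a list of 70, of which 57 were tested. At 6 h 8 rose and 9 fell in CTX WT, and 6 rose and 6 fell in MGE WT. These were 29.8% and 21.1% of the list, below the 35.2% and 25.3% of all genes. The genes called included small GTPases that inhibit voltage-gated calcium channels. Gem rose by 4.48 ± 0.37 in CTX WT (adjusted p = 8.3e-07) and changed by 0.27 ± 0.37 in MGE WT, and the responses differed by -4.21 ± 0.52 (adjusted p = 0.00038). Of the 6 genes on the array in the group listed with Gem, 3 were below the array median in both MGE WT arrays at 0 h and at 6 h. In CTX WT 3 were so at 0 h and 1 at 6 h. The levels of Gem itself are not given here, so its values are read with that limit. Rem2 rose in both, by 2.95 ± 0.29 and 1.89 ± 0.29. Crem, whose inducible product represses CREB targets, rose by 4.13 ± 0.28 in CTX WT and 3.48 ± 0.28 in MGE WT. Chosen after their values were seen, the calcineurin inhibitor Rcan1 fell in both (-0.53 ± 0.15 and -0.59 ± 0.15), as did the store sensor Stim1 (-0.57 ± 0.12 and -0.35 ± 0.12) and the sodium-calcium exchanger Slc8a3 (-0.56 ± 0.12 and -0.64 ± 0.12). At rest 15 of the 57 were higher and 19 lower in MGE WT (59.6% against 64.2% of all genes), among them Jph1, a junction protein that tethers stores to the plasma membrane (-3.52 ± 0.41, adjusted p = 9.4e-06), and Slc8a3 (1.94 ± 0.12, adjusted p = 2.5e-08).

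Npas4 KO and WT cultures were compared at each time. In CTX cultures 0 of 37 members were called at 0, 1 or 6 h (limma, backgrounds 0%, 0.00808% and 0.0485%), with 0 at an unadjusted p under 0.05 at 0 and at 6 h. In MGE cultures 0 were called at 0, 1 or 6 h (backgrounds 0%, 0.0242% and 0.0323%), with 10 at an unadjusted p under 0.05 at 0 h and 2 at 6 h. The KO and WT responses at 6 h differed for 0 members in either cell type (backgrounds 0.00808% in CTX and 0% in MGE), with 0 at an unadjusted p under 0.05. Averaged over times and cell types 0 were called (0.0727% of all genes), with 8 at an unadjusted p under 0.05. Of the 57 related genes 0 were called in each of these comparisons.

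The 95% intervals, which are not adjusted for the number of genes, give the differences compatible with these arrays. At 6 h in CTX cultures the KO minus WT difference was -0.25 for Itprip (95% interval -1.07 to 0.56), -0.29 for Itprid2 (-1.15 to 0.58), -0.09 for Cacna1d (-0.49 to 0.31) and 0.12 for Atp2b2 (-0.24 to 0.49). In MGE cultures it was 0.04 for Itprid2 (-0.83 to 0.90), -0.07 for Cacnb2 (-0.99 to 0.85) and 0.43 for Cacna1d (0.03 to 0.83), the last with an unadjusted p of 0.036 and an adjusted p of 1. The 2 MGE KO arrays of Cacna1d at 6 h (9.68 and 9.75) lay above both WT arrays (9.33 and 9.24). The response of Itprip in CTX differed between genotypes by -0.40, with an interval of -1.55 to 0.74. Differences of either sign within that interval are compatible with these arrays. The 10 unadjusted differences in MGE at 0 h were led by Atp2b1 (0.70 ± 0.22, adjusted p = 0.23) and Camk2d (1.60 ± 0.52, adjusted p = 0.23). Without the WT array that stood apart, Atp2b1 differed by 0.18 and Camk2d by 0.37. Without replicate 1 of that group they differed by 1.22 and 2.83. How many of the 10 kept an unadjusted p under 0.05 in these fits was not counted.

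**Figure D4:**
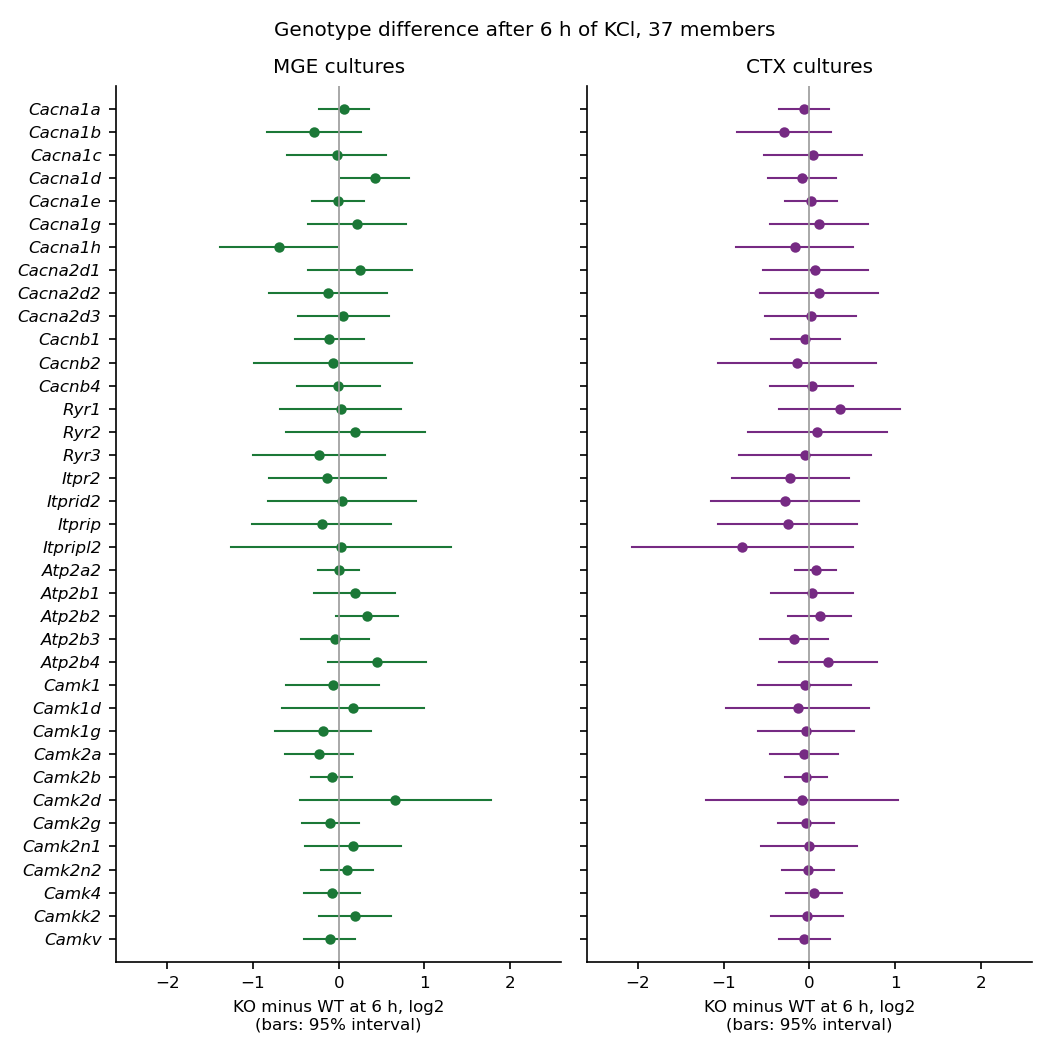
KO minus WT difference at 6 h of KCl (x axis, log2) with its 95% interval for the 37 members in MGE (left, green) and CTX cultures (right, purple). In CTX cultures all 37 intervals include 0; in MGE cultures those of Cacna1d (0.03 to 0.83) and Cacna1h (-1.38 to -0.02) do not, and neither passed the adjusted test.

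Probe sets of 1 gene did not always move together at 6 h. Of the probe sets of Camk2d, Camk4 and Atp2a2, the brightest was not called at 6 h in CTX WT or CTX KO, while others of the same gene were called higher in CTX cultures. These 3 genes were chosen after their values were seen.

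**Figure D5:**
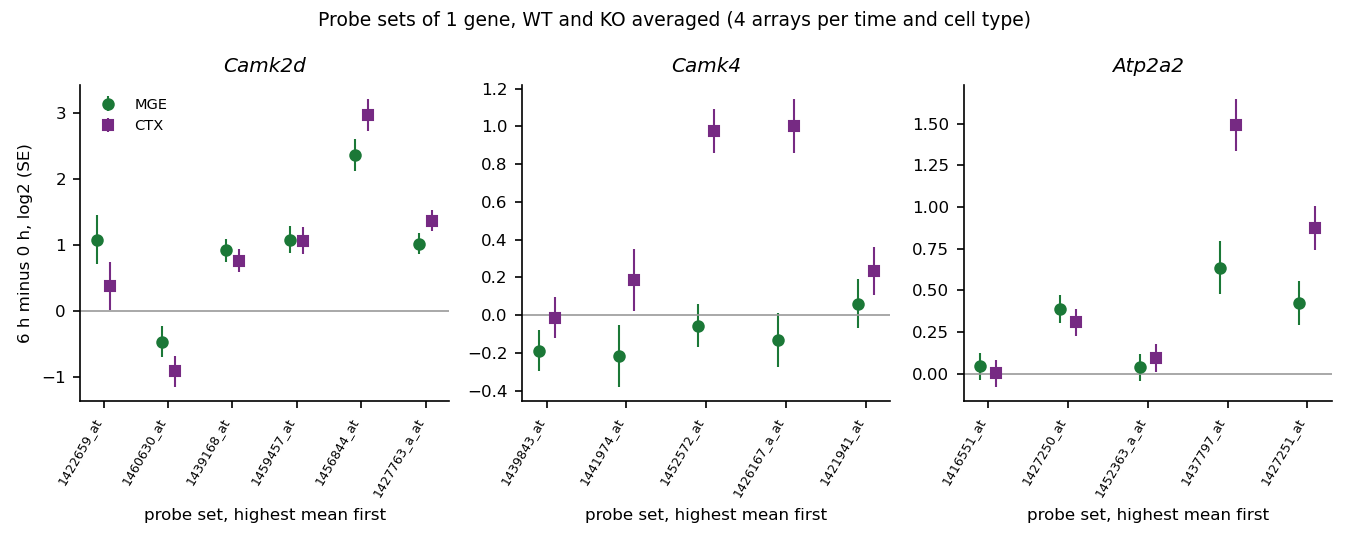
Change from 0 to 6 h of KCl (log2, WT and KO averaged, bars are SE) for each probe set of Camk2d, Camk4 and Atp2a2 in MGE (green) and CTX cultures (purple). Probe sets of 1 gene spread widely, and those of Camk4 that rose did so in CTX cultures.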

How the data were processed

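RNA (100 ng, amplified with the NuGEN Ovation system, per the labels' protocols) was hybridised to Affymetrix mouse 430 2.0 arrays. The authors deposited linear intensity values, summarised with RMA per the submitters' processing notes, with no version given; no value below 6.61 or above 29464 occurs. They were converted to log2 here, and log2 values of the deposited intensities are used throughout. Of 45101 probe sets, 34958 name 1 gene, 932 several and 9211 none, from GEO's platform annotation; 34754 matched RefSeq and no symbol changed. A gene took its probe set with the highest mean. A limma 3.58.1 fit (R 4.3.3) of the 12 group means used all 24 arrays, with two-sided tests and Benjamini-Hochberg adjustment; the script was tested on simulated data. Any member could be named, with fullest values for those called with the largest changes; of other lists, up to 4 called genes per comparison. Alternatives were no filter, cyclic loess scaling, log2 of intensity + 32, averaged probe sets, the replicate number as a block, 1 cell type per fit and leaving out each array; the KO counterparts and the averages over genotypes were chosen after seeing the data. The members and lists were chosen with earlier results of these data known. Same-numbered arrays deviated together in 15 of 15 CTX pairs (correlations 0.11 to 0.71) and 13 of 15 MGE pairs (-0.23 to 0.86); the labels do not say what a number shares. The number of arrays limits the precision.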

Additional observations from a re-analysis of the deposited data

Results flagged for a closer look

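The response to 6 h of KCl differed between MGE and CTX cultures, by the test of the difference itself in limma with Benjamini-Hochberg adjustment, for 4 members in WT. MGE minus CTX was -3.56 for Itprip, -1.01 for Cacna1d, 2.01 for Cacnb2 and 0.83 for Atp2b2 on the log2 scale. Over 13 alternative settings the call was lost in 0 for Itprip, 7 for Cacna1d, 9 for Cacnb2 and 10 for Atp2b2. In KO cultures it was -2.61 for Itprip, the 1 member called there.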

How the results depend on the processing

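The count of members called at rest stayed between 20 and 29 under all settings. In CTX WT at 1 h it was 2 with the replicate block, 0 with only the CTX arrays and 2 averaged over genotypes, and 0 to 1 leaving out an array. In CTX WT at 6 h it was 10 with probe sets averaged, 8 with the block and 10 averaged over genotypes, and 3 to 5 leaving out an array. In CTX KO it was 0 at 1 h with only the CTX arrays, 0 to 1 leaving out an array, and 4 to 4 at 6 h. In MGE WT it was 0 to 6 at 1 h leaving out an array, and at 6 h 11 with the block, 4 with only the MGE arrays and 2 to 16 leaving out an array (16 and 2 without replicates 1 and 2 at 0 h, 3 without replicate 1 at 6 h). In MGE KO at 6 h it was 1 with no filter, 7 with probe sets averaged and 1 to 2 leaving out an array. The count for MGE minus CTX at 6 h was 2 with no filter, with loess and with probe sets averaged, 1 in KO and 1 to 12 leaving out an array; at 1 h it was 0 to 4. For KO against WT the range was 0 to 11 in MGE at 0 h, 0 to 4 for the MGE response and 0 to 10 averaged, each high value without MGE WT replicate 1 at 0 h. At rest Cacna1b (-0.0445) and Camk2d (0.46) reversed with probe sets averaged, and Camk2d (0.24) in KO cultures. Over named members, leaving out an array kept 152 calls, lost 76 and reversed 0; other settings kept 294, lost 34 and reversed 3. Causes were not tested. A lone array left in a group is assumed to vary like the other groups.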

Other observations

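Some probe sets other than the brightest of a gene responded where that one did not. They were chosen after their values were seen, and adjusted p-values are from limma over single-symbol probe sets. A second Camk4 probe set, for the nuclear kinase, went from 8.99 and 9.03 to 10.03 and 10.01 over 6 h in CTX WT, and from 8.84 and 9.44 to 8.96 and 8.97 in MGE WT. It rose by 1.01 ± 0.16 in CTX WT and changed by -0.18 in MGE WT, and the responses differed by -1.19 ± 0.23 (adjusted p = 0.0058), while the main Camk4 probe set changed by -0.06 in CTX WT. A dim Camk2d probe set rose from 6.65 and 6.20 to 9.41 and 9.30 in CTX WT and from 6.10 and 5.58 to 8.51 and 7.42 in MGE WT, by 2.93 ± 0.35 and 2.13. A probe set of the SERCA pump Atp2a2 went in CTX WT from 9.15 and 9.40 through 10.25 and 10.12 after 1 h to 10.67 and 10.63 after 6 h. It rose by 1.38 ± 0.22 in CTX WT and 0.73 in MGE WT, and the responses differed by -0.65 (adjusted p = 0.19). Which transcripts these probe sets read was not tested.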
